A study of Rattus norvegicus with 30 samples.

Results

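Among the transcripts of rat liver that are faint before weaning and abundant in the adult male, 5 genes were followed here in animals given DE-71, a commercial blend of flame retardants of the polybrominated diphenyl ether (PBDE) class: Rup2, Obp3, Hao2, Stac3 and Dhrs7l1. They were chosen by their control values, bright in adult controls and dim in pup controls, and they make up 5 of the 14217 genes that could be read on the array, or 9 of its 31042 tested probe sets. Rup2 has 4 of these probe sets and Obp3 has 2, and each gene is given by its brightest probe set unless another is named. In DE-71 pups of both sexes Rup2 rose far, in males to a mean 2.11 (log2) below the adult control level, and to 3.57, 4.04 and 6.34 below it on its 3 other probe sets. Hao2 rose part of the way and Dhrs7l1 slightly in male pups, while no change of Obp3 or Stac3 passed the test in pups.

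The study dosed time-mated Wistar/Han dams by gavage with corn oil alone or with 50 mg/kg DE-71 in corn oil from gestation day 6 to postnatal day 21. Pups were also dosed directly through postnatal day 21, and the animals kept on were dosed on 5 days per week after weaning. The 30 livers form 6 groups of 5. Pups of both sexes were sampled on postnatal day 22, and males alone were sampled as adults, at week 13; each of these had a corn oil group (control) and a DE-71 group, called PBDE in the labels. No adult females were among them, so an adult level below means that of males. No dam gave more than 1 pup, and no dam gave more than 1 adult within a dose group.

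The 5 genes encode proteins of different kinds. Rup2 encodes rat urinary protein 2, a small secreted protein of the family of Ly6 antigens and the urokinase receptor. Obp3 belongs to the alpha-2u globulins, lipocalins that the liver of the adult male rat secretes in quantity and that reach the urine as carriers of odorants. Hao2 is a peroxisomal oxidase of 2-hydroxy acids, and Dhrs7l1 belongs to the short-chain dehydrogenases and reductases. Stac3 is an adaptor protein best known from skeletal muscle, where it links the calcium channel of the cell membrane to contraction. In rat liver many male-typical transcripts appear only after weaning, when growth hormone begins to be secreted in the pulses that act through the factor STAT5b.

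Promoter sequence was read from RefSeq (build GRCr8) for all 5 genes, as the 250 bases before each annotated start. Those of Rup2, Obp3 and Hao2 are printed because the 3 genes shared the late onset and differed in their level in DE-71 pups, which was high, dim and intermediate in male pups. They are written 5′ to 3′ on the strand of the gene. Capitals mark matches, on either strand, to the letters of STAT5 (TTCNNNGAA), an HNF1 half-site (GTTAAT), the factor family C/EBP (TTNNGNAA) and the TATAAA of a TATA box; C/EBP and STAT5 matches may overlap. The Rup2 stretch is chr8:43551457-43551706, that of Obp3 chr5:79640676-79640925 and that of Hao2 chr2:188913134-188913383, all on the minus strand.
Rup2: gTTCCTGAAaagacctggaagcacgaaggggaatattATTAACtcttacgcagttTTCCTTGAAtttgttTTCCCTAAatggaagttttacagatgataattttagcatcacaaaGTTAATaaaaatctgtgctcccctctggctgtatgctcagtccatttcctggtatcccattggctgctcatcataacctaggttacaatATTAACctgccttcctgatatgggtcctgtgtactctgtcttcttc
Obp3: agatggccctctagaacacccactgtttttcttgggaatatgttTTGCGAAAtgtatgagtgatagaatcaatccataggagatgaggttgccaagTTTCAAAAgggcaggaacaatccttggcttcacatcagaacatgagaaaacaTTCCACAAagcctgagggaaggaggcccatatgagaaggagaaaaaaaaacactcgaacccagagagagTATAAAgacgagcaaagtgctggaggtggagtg
Hao2: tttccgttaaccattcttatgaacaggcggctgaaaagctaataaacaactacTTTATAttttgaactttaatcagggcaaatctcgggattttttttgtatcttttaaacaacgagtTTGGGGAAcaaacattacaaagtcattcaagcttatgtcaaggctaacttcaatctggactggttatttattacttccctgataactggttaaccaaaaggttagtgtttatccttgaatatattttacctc
The Rup2 stretch held 3 HNF1 half-sites, at 213 to 208, 135 to 130 and 46 to 41 bases before the start, letters found at least once in 6.45% of 33469 promoter stretches of this length. It also held a STAT5 match from 195 to 187 bases before the start, letters present in 7.67% of all stretches and in none of the other members. C/EBP letters stood in 3 members (Rup2, Obp3 and Hao2) and in 37.2% of all stretches. Obp3 had TATA letters 33 to 28 bases before its start, and Hao2 had them on the opposite strand at 197 to 192, against 12.9% of all stretches. The nuclear receptor half-site AGGTCA (14.1%) stood in Stac3 alone among the members, 125 to 120 bases before the start on the minus strand. The letters GCGTG of the xenobiotic response core (25.9%) and TGTTTGC of HNF3 (4.16%) were in no member. These are letters in a window and say nothing of whether a factor binds there.

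The livers as a whole carried the labels' signs. Group means of Cyp1a1, the dosing marker induced through the aryl hydrocarbon receptor, were 9.32 and 14.1 in control and DE-71 male pups, 9.03 and 14.3 in female pups and 6.24 and 12.8 in adults. All values are RMA levels on a log2 scale, and array medians lay between 5.72 and 5.77. All 12 measured hepatocyte markers lay above the median tested probe set of 5.74 in every group. A prefix in the array names divides the arrays into 2 batches of 3 groups. Male and female control pups and male DE-71 pups were in the first, and female DE-71 pups and both adult groups in the second. Batch and group therefore cannot be told apart where adults are compared with male pups or with control pups, or female DE-71 pups with their controls; female DE-71 pups and adults share a batch. The 3′ minus 5′ difference of the Gapdh control probe sets, a measure of RNA integrity, was 1.61 ± 0.33 (SD, n = 5) in control and 2.09 ± 0.65 in DE-71 male pups. It was 1.26 ± 0.50 and 1.93 ± 0.30 in female pups and 0.62 ± 0.18 and 1.17 ± 0.62 in adults.

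The control livers show the late onset that chose the genes, and these values are a description. On the log2 scale the adult control mean exceeded that of male control pups by 9.92 for Rup2, 9.71 for Obp3, 8.40 for Dhrs7l1, 7.07 for Hao2 and 6.42 for Stac3. Among the 14217 genes these differences held ranks 1, 2, 5, 9 and 12. The label of a gene dim in pup controls held for Obp3, Dhrs7l1 and female Hao2 on every control pup array, measured against the median tested probe set of 5.74. It held less well for Stac3, whose control pup means were 5.98 in males and 6.07 in females, and for Rup2, which was above that median in 1 of 5 male and 3 of 5 female control pups. Of all tested probe sets, 99.97% lay below Rup2 in adult controls. Adult levels of Rup2 are thus near the top of the scale and pup levels of Obp3 and Dhrs7l1 near its floor, so changes measured there may be too small. In bulk liver a lower number of expressing cells and less RNA per cell cannot be told apart.

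**Figure D1:**
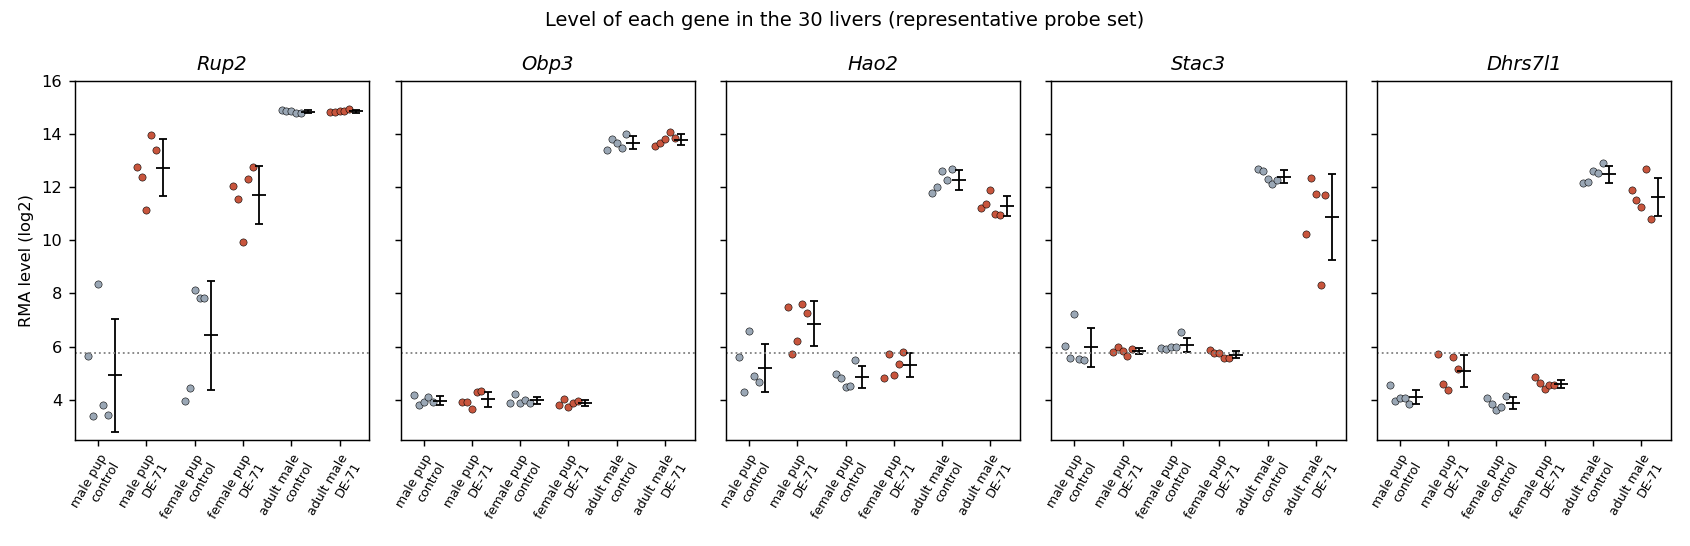
RMA level (log2) of the 5 genes in the 30 livers, one point per array and one panel per gene; black marks give the group mean ± SD (n = 5), and the dotted line is the median tested probe set (5.74). In DE-71 pups Rup2 lies between 9.94 and 13.97, above every control pup, while Obp3 stays between 3.64 and 4.31.

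Rup2 had the largest change with DE-71 of the 5 genes in pups. In male control pups its levels in replicates 1 to 5 were 5.66, 3.38, 8.34, 3.80 and 3.42, and in male DE-71 pups 12.77, 12.39, 11.16, 13.97 and 13.41. Each DE-71 male thus lay above each control male. The change was 7.81 ± 0.79 (SE, n = 5 per group) on the log2 scale, or 225-fold (adjusted p = 6.24e-08). Male controls 2, 4 and 5, at 3.38, 3.80 and 3.42, lay as low as Obp3 in pups, near the floor of the scale, so the size of this fold is uncertain. The other probe sets of Rup2 gave smaller folds in male pups, of 111, 45.1 and 2.89. Female control pups read 3.96, 4.43, 8.12, 7.82 and 7.84, and female DE-71 pups 12.04, 11.55, 9.94, 12.32 and 12.75. Here too the groups were apart, and the change was 5.28 ± 0.79, or 38.9-fold (adjusted p = 3.72e-05). The control arrays that chose the 5 genes stand in the dose comparisons of all of them, in pups and in adults. The response of Rup2 was also known when the genes were chosen. The dose p-values of Rup2 and of the other members are therefore not independent evidence.

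Control pups themselves differed in Rup2 level, and were divided into 2 sets after the values were seen. In 4 of the 10, male replicate 3 and female replicates 3, 4 and 5, the level was between 7.82 and 8.34, and in the other 6 it was between 3.38 and 5.66. The other late-onset genes did not all follow this division. In the 4 pups with the higher Rup2 level Obp3 was between 3.88 and 4.00 and Dhrs7l1 between 3.62 and 4.14, within or below the range of the other 6 pups. Stac3 came closer to the division, at 5.97 to 7.23 in the 4 pups and 5.51 to 6.02 in the other 6. Hao2 ran from 4.49 to 6.58 in the 4 and from 4.29 to 5.61 in the 6. Male control replicate 3 was also the highest of its group for Hao2 (6.58) and Stac3 (7.23). Without it the male change of Rup2 was 8.67. Without female control replicate 1 the female change was 4.67.

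The 4 probe sets of Rup2 agreed in direction in pups and differed in size. In male pups the change was 6.80 ± 0.66 for 1370396_x_at, 5.50 ± 0.66 for 1389270_x_at and 1.53 ± 0.27 for 1370350_x_at, with adjusted p of 4.06e-08, 1.46e-06 and 3.03e-04. All 4 probe sets had DE-71 pups apart from controls in both sexes. The share of all tested probe sets that were apart in the same way is not given here. In female pups 1370396_x_at (4.48 ± 0.66, adjusted p = 3.62e-05) and 1389270_x_at (3.17 ± 0.66, adjusted p = 0.00205) were called at a false discovery rate of 0.01. The probe set 1370350_x_at was not called in females (0.80 ± 0.27, adjusted p = 0.0656). This probe set was dimmer throughout, at 3.14 to 3.61 in male controls, 3.99 to 6.03 in male DE-71 pups and 10.8 to 11.8 in adult controls. In the order of GRCr8, Rup2 lies among the near relatives Rup2l1 and Rup2l2 and several Pate14-like genes that had no probe set of their own here. Which of these related transcripts each probe set reads is uncertain, as the suffixes a_at and x_at mark probes shared among similar transcripts.

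**Figure D2:**
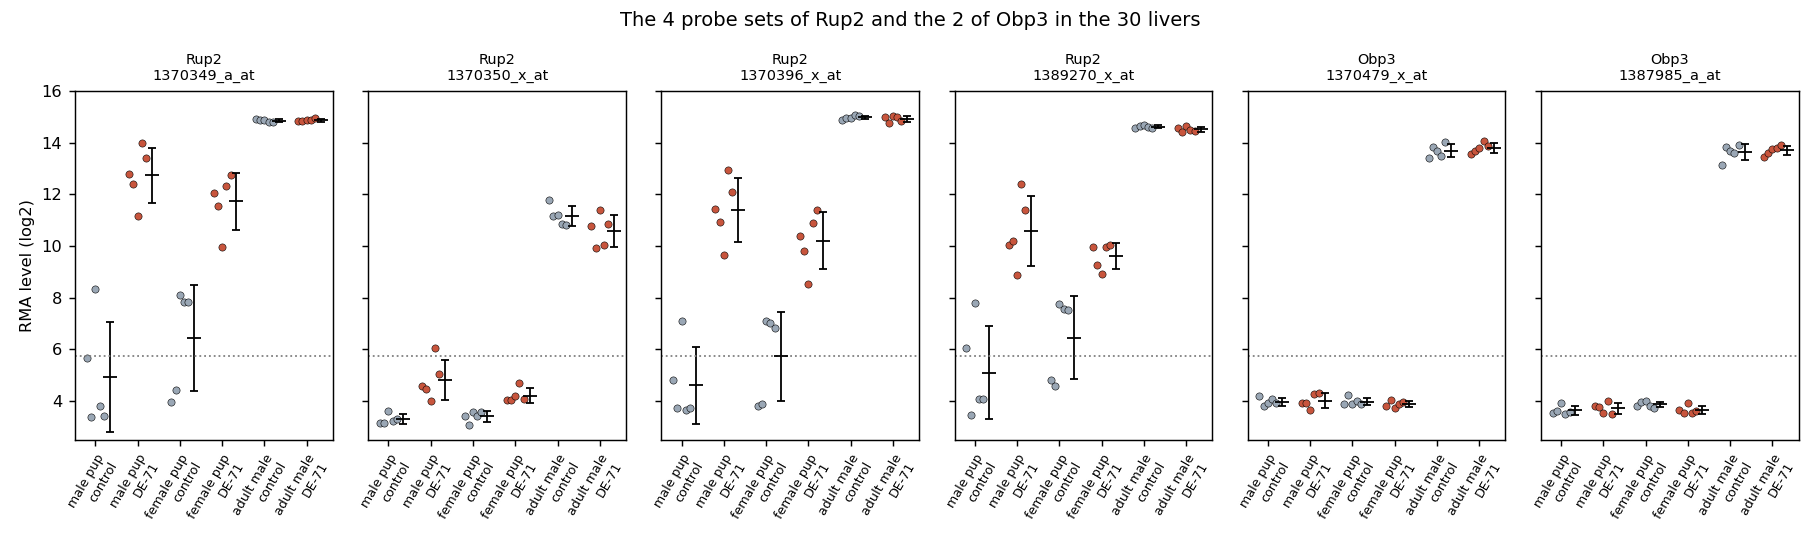
RMA level (log2) on the 4 probe sets of Rup2 and the 2 of Obp3, one point per array; black marks give the group mean ± SD (n = 5), and the dotted line is the median tested probe set (5.74). Each Rup2 panel has DE-71 pups above control pups, with 1370350_x_at lowest, and both Obp3 panels are flat across the pup groups.

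Obp3, the other secreted urinary protein of the set, stayed dim in every pup. Male control pups read 4.17, 3.78, 3.90, 4.08 and 3.91 and male DE-71 pups 3.90, 3.92, 3.64, 4.28 and 4.31. Female control pups read 3.88, 4.22, 3.88, 4.00 and 3.89 and female DE-71 pups 3.82, 4.03, 3.71, 3.89 and 3.94. All 4 pup groups overlapped, far below the adult controls at 13.41, 13.83, 13.67, 13.46 and 14.02. The change was 0.04 ± 0.12 in male pups (95% interval -0.21 to 0.29, adjusted p = 0.890) and -0.10 ± 0.12 in female pups (-0.35 to 0.16, adjusted p = 0.745). The second probe set, 1387985_a_at, gave 0.08 ± 0.12 (adjusted p = 0.778) and -0.21 ± 0.12 (adjusted p = 0.342). With the pup levels near the floor these intervals bound only changes that the probes can register. Alpha-2u globulin genes resemble one another closely, and the signal of each Obp3 probe set may include relatives.

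Hao2, the peroxisomal hydroxyacid oxidase, rose part of the way in male pups. Male control pups read 5.61, 4.29, 6.58, 4.90 and 4.67 and male DE-71 pups 7.49, 5.73, 6.21, 7.61 and 7.28. In 3 of the DE-71 males the level exceeded every control, and in the other 2 it lay within the control range. The change was 1.65 ± 0.35, or 3.14-fold (adjusted p = 0.00211). It kept its direction and lost the call when the compared groups alone were fitted (adjusted p = 0.0346), with values floored at the array median (0.95, adjusted p = 0.0283) and without male control replicate 2 (1.42, adjusted p = 0.0106). Female control pups read 4.98, 4.82, 4.49, 4.53 and 5.49 and female DE-71 pups 4.81, 5.73, 4.92, 5.33 and 5.80, which overlapped (0.46 ± 0.35, adjusted p = 0.523).

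Dhrs7l1, the short-chain dehydrogenase, moved within the dim range. Male control pups read 4.54, 3.95, 4.06, 4.07 and 3.83 and male DE-71 pups 5.72, 4.60, 4.36, 5.60 and 5.17. These groups overlapped at 1 DE-71 pup, and every value stayed below the median tested probe set. The change was 1.00 ± 0.25 (adjusted p = 0.00895), and it did not pass in 13 of 19 alternative analyses. Among these, male control replicates 2, 3, 4 and 5 and male DE-71 replicates 1, 4 and 5, each left out, gave 0.84 to 0.99 with adjusted p of 0.0178 to 0.0364. Female control pups read 4.06, 3.82, 3.62, 3.71 and 4.14 and female DE-71 pups 4.85, 4.61, 4.40, 4.55 and 4.56. The female groups were apart, at 0.72 ± 0.25 (adjusted p = 0.0741). With a fit to the female groups alone it passed (adjusted p = 0.00180).

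Stac3, the adaptor protein, did not rise in pups of either sex. Male control pups read 6.02, 5.59, 7.23, 5.55 and 5.51 and male DE-71 pups 5.80, 6.00, 5.84, 5.65 and 5.89, with a change of -0.14 ± 0.43 (95% interval -1.03 to 0.74, adjusted p = 0.890). The control group held 1 array well above the rest. Without it, male control replicate 3, the change was 0.17. Female control pups read 5.97, 5.89, 5.97, 5.97 and 6.55 and female DE-71 pups 5.86, 5.74, 5.74, 5.57 and 5.57. The DE-71 females were all below the control females by a narrow margin of 0.03, at -0.37 ± 0.43 (adjusted p = 0.7099). The SE of 0.43 rests on a spread shared with the adult DE-71 group, whose SD was 1.63, against 0.13 in each DE-71 pup group.

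Of the 5 genes, 3 were called higher in male pups (Rup2, Hao2 and Dhrs7l1), where 2.89% of all tested probe sets were. In female pups 1 was called higher, Rup2, against 2.55% of all probe sets. None was called lower in pups. The dim pup controls that chose the genes stand in these counts and leave little room to fall, so their direction is partly fixed by the choice. The males lie in 1 array batch and the females span both. With the Gapdh 3′ minus 5′ difference as a covariate the changes of Rup2 were 7.88 in males and 5.37 in females, that of Hao2 in males was 1.57 (adjusted p = 0.00559) and that of Dhrs7l1 in males 1.04 (adjusted p = 0.0101, no longer called).

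**Figure D3:**
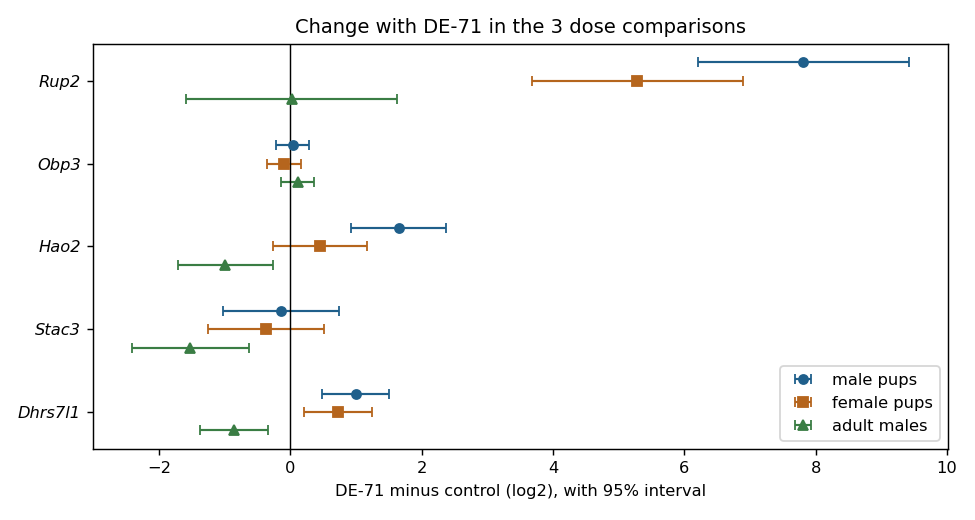
DE-71 minus control (log2) for each gene in male pups, female pups and adult males, with 95% intervals from the linear model (n = 5 per group). The Rup2 interval in male pups runs from 6.21 to 9.42, and that of Obp3 covers 0 in all 3 comparisons.

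The distance covered towards the adult level differed widely among the 5 genes. It is given as the share of the log2 difference between pup controls and adult controls, and is a description because those controls chose the genes. In male DE-71 pups the share was 78.8% ± 10.8 (SD, n = 5) for Rup2, from 62.9% to 91.2%. It was 23.4% ± 11.9 for Hao2, 11.9% ± 7.1 for Dhrs7l1, 0.42% ± 2.9 for Obp3 and -2.2% ± 2.0 for Stac3. No male pup came near the lowest Rup2 share for another of the 5 genes, as the highest for Hao2 was 33.9%. In female DE-71 pups, set against female control pups, it was 62.8% ± 12.9 for Rup2, 8.4% ± 1.9 for Dhrs7l1 and 6.1% ± 6.1 for Hao2. Obp3 and Stac3 stood at -0.99% and -5.9% in females. The Rup2 share depended on the probe set, at 65.5%, 57.7% and 19.5% in males for 1370396_x_at, 1389270_x_at and 1370350_x_at, and 48.4%, 38.8% and 10.3% in females.

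**Figure D4:**
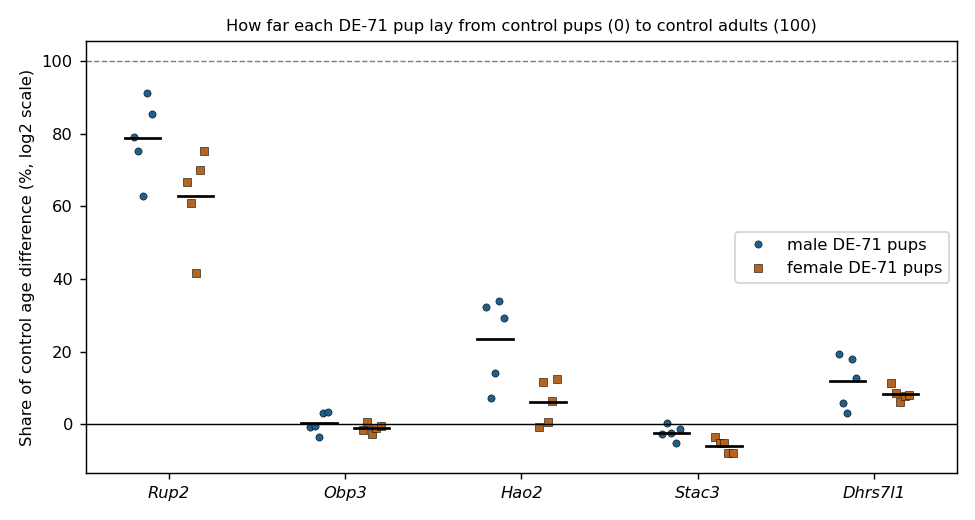
Share of the control age difference reached by each DE-71 pup (percent of the log2 difference, 0 for the mean of control pups of that sex and 100 for the mean of adult controls); bars give the mean of 5 pups. Rup2 lies between 62.9% and 91.2% in male pups, and the other 4 genes lie below 34% in every pup.

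A comparison of DE-71 males of the 2 ages uses none of the control arrays by which the genes were chosen, though it crosses the batches. The genes were chosen for their rise with age in controls, and the response of Rup2 in DE-71 pups was known at the choice. A higher adult level was thus largely set in advance, so the values and p-values of all 5 genes here are a description. In adult DE-71 males Obp3 read 13.55 to 14.08, Hao2 10.97 to 11.90, Stac3 8.32 to 12.37 and Dhrs7l1 10.81 to 12.69. All 4 genes were higher in adult than in pup DE-71 males, by 9.78 ± 0.12 for Obp3 (adjusted p = 4.15e-31), 6.54 ± 0.25 for Dhrs7l1 (6.07e-18), 5.04 ± 0.43 for Stac3 (9.63e-10) and 4.43 ± 0.35 for Hao2 (1.99e-10). Of all probe sets 5.35% were called higher here. For Rup2 the adults exceeded the pups by 2.13 ± 0.79 (adjusted p = 0.0691, not called), with all 5 adults at 14.82 to 14.94 above the 5 pups. Its other 3 probe sets were called, at 5.77, 3.94 and 3.53. The gene passed without male DE-71 pup replicate 4 (2.43, adjusted p = 0.0483) and with the compared groups alone (adjusted p = 0.00399). Female DE-71 pups, in the batch of the adults, lay below every DE-71 adult for all 5 genes. They read 9.94 to 12.75 for Rup2, 3.71 to 4.03 for Obp3 and 4.81 to 5.80 for Hao2. For Stac3 they read 5.57 to 5.86 and for Dhrs7l1 4.40 to 4.85. Sex differs there as well as age. The choice of genes largely set this order in advance, and the share of all probe sets apart between these groups is not given here.

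The sexes were compared directly as well. In control pups none of the 5 genes was called between males and females, against 0.0354% of all probe sets, and Rup2 stood at -1.51 ± 0.79 (male minus female, adjusted p = 0.629). In DE-71 pups none was called either, against 0.0451% of all probe sets, and these arrays lie in 2 batches. Hao2 had the largest difference there among the members, 1.54 ± 0.35 higher in males (adjusted p = 0.148, unadjusted p = 1.39e-04). A test of whether the change with DE-71 differed between the sexes called none of the 5 genes. For Rup2 the male change exceeded the female one by 2.53 ± 1.11 (unadjusted p = 0.0303, adjusted p = 0.953). For Hao2 it did so by 1.195 ± 0.50 (unadjusted p = 0.0229, adjusted p = 0.953). In that test limma called 0 of the 31042 probe sets (0%), with 1576 at an unadjusted p under 0.05, so the calls of Hao2 and Dhrs7l1 in males alone do not show a sex difference.

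In adult males neither urinary protein gene changed by the test. Rup2 read 14.91, 14.86, 14.86, 14.80 and 14.78 in controls and 14.83, 14.82, 14.86, 14.86 and 14.94 with DE-71, at 0.02 ± 0.79 (adjusted p = 0.995). This SE rests on a spread shared by all 6 groups. The SDs of Rup2 were 0.054 and 0.049 in control and DE-71 adults, against 2.13 and 2.05 in male and female control pups. The place of Rup2 near the top of the scale may also hide a change. Its dimmer probe set 1370350_x_at had means of 11.15 in adult controls and 10.59 with DE-71. The change there was -0.57 ± 0.27 (95% interval -1.12 to -0.015, unadjusted p = 0.0446, adjusted p = 0.290, not called). It was -0.044 on 1370396_x_at and -0.094 on 1389270_x_at. Obp3 read 13.55, 13.68, 13.81, 14.08 and 13.85 with DE-71, at 0.12 ± 0.12 (95% interval -0.14 to 0.37, adjusted p = 0.703). Hao2, Dhrs7l1 and Stac3 had lower means in adult DE-71 males, and 1 of the 3 passed the test.

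Stac3 was that gene. Adult controls read 12.67, 12.61, 12.32, 12.11 and 12.26, and DE-71 adults 10.23, 12.37, 11.76, 8.32 and 11.69. Replicates 1 and 4 of the DE-71 group were far below the controls, and replicate 2 was within their range. The change was -1.52 ± 0.43, or 2.87-fold lower (adjusted p = 0.0497, just inside the threshold of 0.05), where 1.64% of all probe sets were called lower. The call was lost in 13 of 19 alternative analyses, which gave adjusted p up to 0.288, the value with the compared groups alone. It was lost without DE-71 replicate 4 (-0.88, adjusted p = 0.125) or 1 (-1.36, adjusted p = 0.0999) and without any 1 of the 5 controls (-1.59 to -1.45, adjusted p 0.0648 to 0.0992).

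Hao2 and Dhrs7l1 leaned the same way in adults without passing. Hao2 read 11.77, 12.02, 12.62, 12.29 and 12.69 in controls and 11.23, 11.36, 11.90, 10.99 and 10.97 with DE-71, at -0.99 ± 0.35 (adjusted p = 0.129). Only the DE-71 replicate at 11.90 reached into the control range. Dhrs7l1 read 12.16, 12.20, 12.63, 12.54 and 12.91 in controls and 11.89, 11.51, 11.24, 12.69 and 10.81 with DE-71, at -0.86 ± 0.25 (adjusted p = 0.0569). There 4 of 5 DE-71 adults lay below every control and replicate 4 lay among them. Without that replicate the change was -1.13 (adjusted p = 0.00543). Hao2 passed with the compared groups alone (adjusted p = 0.0478).

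The order of levels over the 6 groups follows from these values. Rup2 was highest in both adult groups, which overlapped, then in male and female DE-71 pups, which overlapped, and then in both control pup groups, which overlapped as well. For Obp3 both adult groups overlapped and all 4 pup groups overlapped. For Hao2 the adult groups overlapped slightly, male DE-71 pups came next and overlapped the female DE-71 pups by 0.07, and control pups had the lowest means and overlapped the DE-71 pups of their sex. Dhrs7l1 had the same order with female DE-71 pups apart from female controls. For Stac3 all pup groups overlapped or lay within 0.03 of each other.

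Genes with a like pattern over the 30 arrays differed between Rup2 and the rest, measured by Pearson's r, which mostly reflects the groups. The closest to Rup2 were the apolipoprotein Apoa2 (r = 0.939), the polyamine acetyltransferase Sat1 (0.919), the oestrogen sulfotransferase Sult1e1 (0.915), Mettl7a (0.915) and Trim26 (0.909). Group means of Apoa2 were 12.1 in control pups of each sex, 13.95 in male DE-71 pups and 14.3 in adult controls. For Obp3 the closest was Mup5 (0.999), another alpha-2u type lipocalin, followed by the steroid hydroxylase Cyp2a2 (0.993), the steroid reductase Hsd3b5 (0.992), Dhrs7l1 (0.987) and Akr1c1 (0.987). Dhrs7l1 was closest to Hsd3b5 (0.990), Cyp2a2 (0.988), Obp3 (0.987), Mup5 (0.986) and Cyp3a9 (0.984). Hao2 was closest to the transporter gene Ust5r (0.981), Dhrs7l1 (0.979), Cyp3a9 (0.976), Hsd3b5 (0.974) and Cyp2a2 (0.973). Stac3 was closest to Elapor1 (0.974), Zfp37 (0.960), Mup5 (0.959), Hsd3b5 (0.955) and Obp3 (0.954). Among the members r was 0.939 to 0.987 without Rup2, and 0.650 to 0.781 between Rup2 and each other gene.

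The wider class of late-onset genes was set out by a rule on the controls: an adult control level at least 2 above male pup controls and above the array median, on the log2 scale, with both pup control means below the median. It held 15 genes, among them Obp3, Hao2 and Dhrs7l1; Rup2 and Stac3 fell outside because a pup control mean was above the median. In male pups 8 of the 15 rose and none fell, with a median change of 0.82, where 4.23% of all genes rose and their median change was 0.02. Without the members 6 of 12 rose. The rule took genes that were dim in the same pup controls from which the change is measured, which leaves little room to fall, so the direction of these counts is partly fixed by the rule. The P450 gene Cyp2c13 rose most (4.40 ± 0.48, adjusted p = 2.19e-07), followed by Hao2, Ust5r (1.62 ± 0.35), Cyp3a9 (1.56 ± 0.29), Dhrs7l1, Hsd3b5 (0.97 ± 0.21), Cyp2a2 (0.82 ± 0.16) and Xk (0.82 ± 0.19). In the share of the age difference the 8 genes reached 10.9% to 47.4%, against 78.8% for Rup2, or 19.5% on its probe set 1370350_x_at. Rup2 is itself outside the rule, and a long way towards the adult level was not particular to it. Sult1e1, also outside the rule, rose by 5.13 in male pups against a control age difference of 8.22. Cyp2c7, already at 9.70 in male control pups, rose by 4.57 against 4.62. Ugt2b stood at 4.16 ± 1.72 (adjusted p = 0.127) with a share of 112%, its mean in male DE-71 pups (9.01) being above that of adult controls (8.55), and Akr1c1 at 0.52 (adjusted p = 0.113). The smallest changes were those of Obp3, Mup5 (0.16, adjusted p = 0.417), Tmem150c (0.26), Nim1k (-0.36) and Elapor1 (0.43).

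In female pups none of the 15 late-onset genes rose or fell, where 3.95% of all genes rose and 2.18% fell. With 15 genes such shares leave few calls to find, so the count of 0 does not show an absence of response. Cyp2c13 stood at 0.72 ± 0.48 (adjusted p = 0.432) and Xk at 0.64 ± 0.19 (adjusted p = 0.0343). In adults none rose and 2 fell, Elapor1 (-0.86 ± 0.24, adjusted p = 0.0489) and the kinase gene Nim1k (-1.66 ± 0.28, adjusted p = 5.85e-04). Of all genes 1.86% rose and 2.04% fell in adults. Elapor1, the gene most like Stac3, read 8.05, 8.51, 7.73, 6.69 and 7.72 in DE-71 adults against 8.19 to 8.79 in controls. Its lowest array was replicate 4, as for Stac3.

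**Figure D5:**
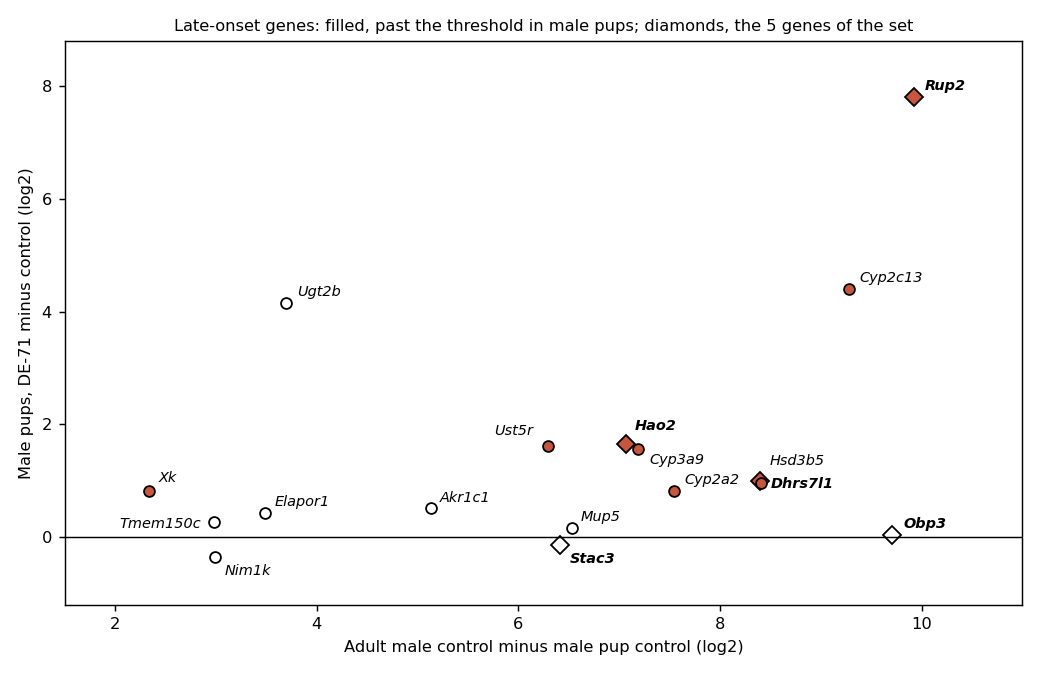
Control age difference (adult male minus male pup controls, log2) against the change with DE-71 in male pups (log2) for the 15 late-onset genes and Rup2 and Stac3; filled marks were called in male pups at a false discovery rate of 0.01 and diamonds are the 5 members. Rup2 lies highest at 7.81, and Obp3 lies at 0.04 with nearly the same age difference.

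Gene lists around each member were counted by the same tests. Of all genes 4.23% rose and 3.26% fell in male pups, and 3.95% and 2.18% in female pups. In adults these shares were 1.86% and 2.04%. Of 14 measured genes of the Ly6 and urokinase receptor family, Rup2 alone rose in male pups. The other 13 had changes from -0.14 to 0.32, and in females Ly6e rose as well (0.70 ± 0.16, adjusted p = 0.00539). Of 11 lipocalins and retinol carriers, which include Obp3 and Mup5, none changed in male pups. In this list Ambp fell in female pups (-0.18, adjusted p = 0.00935) and Apom in adults (-0.56, adjusted p = 0.00168).

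Of 17 peroxisomal oxidation genes Hao2 alone rose in male pups and 3 fell, among them the lyase Hacl1 (-1.18 ± 0.24) and the aminotransferase Agxt (-1.06 ± 0.14). Hao1, the glycolate oxidase related to Hao2, was at -0.24 ± 0.08 (adjusted p = 0.0348). Of 30 short-chain dehydrogenases and reductases, Dhrs7l1 and the carbonyl reductase Cbr1 (0.52 ± 0.12) rose in male pups and Hsd17b13 fell (-0.75 ± 0.09). Dhrs7, the neighbour of Dhrs7l1 in GRCr8, was at -0.10 ± 0.11 (adjusted p = 0.662), with means of 9.57 in male control pups and 9.95 in adult controls.

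Of 13 genes of the STAC family and of voltage-gated coupling, none changed in pups and Stac3 alone fell in adults. Its muscle partners Cacna1s and Ryr1 had group means of 4.10 to 4.34 and 4.61 to 5.05. Of 13 skeletal muscle markers 11 lay below the median tested probe set in every group and none passed the test in any dose comparison. The sum of their levels was between 11.2 and 12.2 over all arrays, and the actin gene Acta1 had group means of 3.46 to 3.89. Myh1 alone had group means of 11.28 to 11.98.

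Lists of sex-biased and hormone-linked liver genes were counted beside the members. Of 11 male-biased adult liver genes 6 rose in male pups and 2 in female pups, with Sult1e1 (5.13 ± 0.35), Cyp2c13 and Cyp2c11 (2.80 ± 0.32) leading in males, where 4.23% of all genes rose in male and 3.95% in female pups. In adults 1 of the 11 rose, the P450 gene Cyp3a2 (0.31, adjusted p = 0.00913), and 1 fell, the transporter gene Slco1a1 (-0.38, adjusted p = 0.0484), against 1.86% and 2.04% of all genes. Of 8 female-biased genes 2 rose in each sex, Cyp2c7 (4.57 ± 0.29 in males) and Cyp2a1 (0.72 ± 0.12), and Cyp2c12 fell in adults (-1.13, adjusted p = 1.07e-04). Of 18 growth hormone and STAT5 genes none rose in male pups and 1 fell, Igfbp2 (-2.37 ± 0.31), which fell in female pups with Igfals (-0.62). In adults 2 of the 18 fell, the STAT5 target Socs2 (-2.09 ± 0.35, adjusted p = 5.57e-04) and the transcription factor Onecut1 (-1.47 ± 0.41, adjusted p = 0.0472). Socs2 read 6.37, 6.73, 8.30, 6.37 and 6.05 in DE-71 adults against 8.37 to 9.39 in controls, apart from them. Its part in the lower Stac3 level was not tested.

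Markers of other liver cells moved in part with DE-71. In male pups 3 of 10 endothelial markers and 2 of 9 Kupffer cell and macrophage markers fell, where 3.26% of all genes did. Summed endothelial levels went from 12.7 to 13.0 in male control pups and from 12.2 to 12.5 in male DE-71 pups. Of 12 hepatocyte markers 1 fell in male pups, Cps1 (-0.29 ± 0.07), and summed levels lay between 17.83 and 17.996 on all 30 arrays. Of 9 cholangiocyte markers Epcam alone was called, rising by 1.07, 0.92 and 1.13 in male pups, female pups and adults. The median changes of the 9 were 0.07, 0.12 and 0.05. The part of these shifts in the levels of the 5 genes was not tested.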

How the data were processed

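Each liver gave 50 ng of RNA for labelling and 1 Affymetrix rat array. The authors deposited log2 values made with RMA, per the submitters' processing notes; which RMA program was run is not stated in those notes. Of 31099 deposited probe sets on 30 arrays, with 0 value columns unused, 57 were controls and were not tested. By the platform annotation 20826 probe sets had 1 gene, 436 had several and 9780 had none listed; 20758 matched RefSeq by gene ID. A gene's representative is its single-gene probe set with the highest mean.

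All groups entered 1 linear model of group means in limma 3.58.1 (R 4.3.3, eBayes), with Benjamini-Hochberg adjustment over 31042 probe sets. Each SE, interval and call therefore rests on the spread of all 6 groups, which differed widely for Rup2 and Stac3. The false discovery rate was 0.01 in pups and 0.05 in the adult dose comparison, after the series' design text. The authors' own tool there was R/maanova. That text does not name the comparison of adult with pup DE-71 males, and its rate of 0.05 was set here. Fits were tested on simulated data. Precision is limited by 5 livers per group. Members, gene lists, motifs and comparisons were chosen with earlier results of these data known. Genes were named by a rule: all members, Cyp1a1, up to 3 per list past the threshold in male pups, the 5 most like each member, and the 10 largest increases and 5 smallest changes among late-onset genes. Others were named after their values were seen. Replicate numbers do not name a shared dam. The mean residual correlation was 0.00417 for arrays with the same number and -9.06e-04 for other pairs. Counts of single pairs, given further on, do not settle whether the numbers pair the arrays. Alternatives covered normalization, spread, filters, probe set, RNA integrity, the groups fitted and each replicate left out.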

Additional observations from a re-analysis of the deposited data

Results flagged for a closer look

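Of 54 sets of 5 arrays, each a group on a probe set of the 5 genes, 4 held an array far from the other 4, where chance gives about 1 in 20. On the dimmest Rup2 probe set, 1370350_x_at, female DE-71 replicate 4 was highest at 4.697. On the second Obp3 probe set, 1387985_a_at, male control replicate 3 was highest at 3.932 and female DE-71 replicate 3 at 3.923, both near the floor of the scale. Female control replicate 5 was highest for Stac3 at 6.551. For Hao2 each male DE-71 pup lay above the mean of its controls and each adult DE-71 male below the mean of its own, though the adult difference did not pass the test (-0.99, adjusted p = 0.129). The change in adults minus the change in male pups was -2.64 on the log2 scale; this difference was not tested, because the controls that chose the genes enter it.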

How the results depend on the processing

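No value that passed its test, as reported or under an alternative, changed sign, while 18 values for single genes that passed under neither did (adjusted p at least 0.290). Rup2 in adults (0.02) was -0.57, -0.044 and -0.094 on probe sets 1370350_x_at, 1370396_x_at and 1389270_x_at. With each replicate left out, Obp3 in male pups ran from -0.034 to 0.13 and Stac3 in male pups from -0.26 to 0.17. In control pups, male minus female, Obp3 ran from -0.055 to 0.056 and Stac3 from -0.40 to 0.030, and these were 0.0058 after renewed quantile normalization (Obp3) and 0.027 with values floored at the array median (Stac3). Of the counts that answer a comparison, 275 values kept within 1.5 times the main count and 17 moved; of the values for single genes, 690 kept their direction and their side of the threshold, 30 lost the call, 13 gained it and 2 moved. Members called higher in male pups (3) numbered 1 with values floored at the array median and 1 with the compared groups alone, and 1 to 3 with each replicate left out. The 1 among these was without male control replicate 2. Members called higher in female pups (1) numbered 2 with the compared groups alone and stayed at 1 with each replicate left out. Members called lower in adults (1) numbered 0 after renewed quantile normalization, with a trended and robust eBayes, with no shrinkage and with the Gapdh 3′ minus 5′ covariate, and 0 to 1 with each replicate left out. They numbered 2 with the filter on low values, which kept 16477 probe sets, and 2 with a replicate block, where Dhrs7l1 passed (adjusted p = 0.0382). The replicate numbers name no shared dam. Of 75 same-number pairs 18 had a residual correlation above 0.1, and 11 of 30 arrays were most like their own number. The shares that chance would give were not computed, so these counts do not settle whether the numbers pair the arrays. All 5 members pass the filter on low values through the adult groups in which they are bright, so it gives no support. Of late-onset genes that fell in adults (2), 1 was left at a difference of at least 3. With values floored at the array median Dhrs7l1 had a change and a share of 0 in pups, since all its pup values lie below that median. Calls of Rup2 in pups held in every alternative run except that of 1370350_x_at in females. A comparison within 1 batch was not run for female pups, whose groups lie in different batches. Dim pup levels and bright adult levels limit the changes of Obp3, Dhrs7l1 and Rup2 that can be seen.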

Other observations

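Of the 40 protein-coding genes next to the members in GRCr8, 4 on each side, 16 were read and none of these lies next to Rup2. Of the 16, 1 rose and 1 fell in male pups, and none was called in adults. Hao2 lies 4 genes from Hsd3b5, which rose in male pups as well (log2 0.97, adjusted p = 0.00283), while Hsd3b1, the gene beside Hao2, read 4.31 to 4.57 in all 6 group means and was at 0.16 (adjusted p = 0.334). Stac3 lies near the activin-type ligand genes Inhbe and Inhbc. Inhbe fell in male pups (-0.82, adjusted p = 0.00242), and Inhbc stood at -1.04 in adults (adjusted p = 0.0559) where Stac3 fell. Obp3 lies near Mup4 and Mup4l4, which were not read here.

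Within the 10 DE-71 pups, with each gene centred on its group mean, 10 pairs of members were compared by permutation within groups. None passed after adjustment. Rup2 and Obp3 had the highest correlation (Pearson's r = 0.78, permutation p = 0.0082, adjusted p = 0.082; Spearman's rho = 0.79, permutation p = 0.0198, adjusted p = 0.184), and r was 0.57 without the 2 pups farthest from the median of Rup2. It was 0.95 in the 5 males and 0.60 in the 5 females, which lie in different batches. The Obp3 values behind it span only 3.64 to 4.31.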
